A study of Homo sapiens with 15 samples.

Results

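The comparison set the 2 neuroblastoma lines that carry the ALK F1174L substitution, SH-SY5Y and KELLY, against 3 lines with wild-type ALK, SK-N-AS, NGP and BE(2)-C. Total RNA was measured on 15 oligonucleotide arrays, 3 per line, so 6 arrays stood against 9. The genes described were chosen by their values: on arrays centred on their median, all 6 differences between an F1174L line and a wild-type line had to share a sign and reach 1 on the log2 scale. Of 12721 genes tested, 71 met this rule, 33 of them higher in the F1174L lines (0.259% of all tested) and 38 lower (0.299%).

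The ALK and MYCN states of the lines come from general knowledge of them and are not in the labels. KELLY, NGP and BE(2)-C are MYCN-amplified, and SH-SY5Y and SK-N-AS are not, so each ALK class holds lines of both MYCN states. SK-N-AS is also known for an NRAS mutation, and a line is 1 patient's tumour, so the ALK class is carried by 5 genetic backgrounds that differ in much else. All lines grew untreated in DMEM with 10% fetal bovine serum. The labels number the arrays of a line and do not name separate cultures as their source, and a p-value over arrays then covers only how far 3 such samples of a line spread, possibly for technical reasons alone.

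ALK is a receptor tyrosine kinase of the developing sympathetic nervous system. Its ligands are the ALKAL proteins, and an active receptor signals through adaptors to the RAS-MAPK and PI3K-AKT pathways. F1174L lies in the kinase domain and leaves the receptor active without ligand, and it is one of the recurrent activating mutations of neuroblastoma. The arrays measured RNA levels and did not read the mutation or the activity of the receptor.

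The promoters of 3 genes are printed because these genes lead the results: ARMCX2 and TCEAL5, which lie near each other on the X chromosome and were both higher in the F1174L lines, and PHLDA1, the gene with the largest smallest difference among the lower ones. Each run holds 250 bases before and 50 after the start of the gene, 5′ to 3′ on the gene's strand, from RefSeq on GRCh38.p14. Capitals mark CACGTG, the E-box that proteins of the MYC family bind.
ARMCX2, minus strand, chrX:101659801-101660100: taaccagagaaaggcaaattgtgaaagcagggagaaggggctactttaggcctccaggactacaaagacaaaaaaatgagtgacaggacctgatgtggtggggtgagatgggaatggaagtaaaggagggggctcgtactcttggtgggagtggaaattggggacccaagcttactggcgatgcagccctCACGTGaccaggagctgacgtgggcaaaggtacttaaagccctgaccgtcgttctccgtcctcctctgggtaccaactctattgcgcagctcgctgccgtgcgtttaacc
TCEAL5, minus strand, chrX:103276701-103277000: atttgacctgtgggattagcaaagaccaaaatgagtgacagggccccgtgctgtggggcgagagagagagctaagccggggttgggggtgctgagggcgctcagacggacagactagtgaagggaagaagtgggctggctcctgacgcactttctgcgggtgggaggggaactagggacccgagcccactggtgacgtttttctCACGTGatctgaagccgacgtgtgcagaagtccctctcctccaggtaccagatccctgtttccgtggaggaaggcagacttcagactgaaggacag
PHLDA1, minus strand, chr12:76031727-76032026: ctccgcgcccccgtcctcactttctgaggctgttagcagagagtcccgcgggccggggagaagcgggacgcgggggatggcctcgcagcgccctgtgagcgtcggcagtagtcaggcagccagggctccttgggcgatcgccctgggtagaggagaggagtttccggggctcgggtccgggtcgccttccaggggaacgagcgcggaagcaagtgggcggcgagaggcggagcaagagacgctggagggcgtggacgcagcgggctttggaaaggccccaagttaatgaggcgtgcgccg

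CACGTG stood in the promoters of ARMCX2 and TCEAL5 and, of the other higher genes, in that of MAP7D2. That was 3 of the 26 higher genes with a promoter in the table used (11.5%), beside 3 of 29 lower genes (10.3%; RREB1, SLC39A11 and RELN) and 10.1% of 10408 promoters of tested genes. The PHLDA1 window holds none of the 3 motifs searched, which were CACGTG, TGACGTCA (the cyclic AMP response element) and TGANTCA (the AP-1 site), each on both strands and with no overlap between the motifs. TGACGTCA was found in 1 higher and 0 lower genes (3.22% of all promoters) and TGANTCA in 1 higher and 0 lower genes (4.36%). The median number of CpG dinucleotides was 24.5 in the promoters of higher genes, 29 in those of lower genes and 26 over all promoters. A match is a description of these letters and not a bound site.

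The lines differed in brightness in a way that moved with the ALK class. On the deposited scale the median intensity of an array ran from 51.9 to 69.3 in the F1174L lines and from 73.4 to 126 in the wild-type lines, while the background probe sets had line medians of 16.5 to 17.9 in all 5. Relative to ERCC spike-in RNA, the median gene level was -1.37 ± 0.03 for SH-SY5Y and -1.22 ± 0.02 for KELLY (log2, SD, n = 3). It was higher for NGP (-0.98 ± 0.09), BE(2)-C (-0.39 ± 0.08) and SK-N-AS (-0.09 ± 0.09). The class difference of -0.81 had p = 0.2 when line means were permuted (exact, two-sided, 5 lines), where the smallest possible p is 0.1. Relative to hybridization controls instead, SH-SY5Y (-2.41) stood level with NGP (-2.41), BE(2)-C (-2.41) and SK-N-AS (-2.43). Only KELLY was lower (-2.82), and the class difference was -0.20. Centring removes this shift, so centred log2 differences are given first and the deposited intensities beside them; the ALK class and the amount of RNA per spike-in cannot be told apart in these lines. The median class difference over all tested genes was -0.13 on centred arrays and -0.82 on the deposited scale.

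The brighter of the ALK probe sets did not separate the classes. It read 515, 455 and 449 in SH-SY5Y, 200, 216 and 224 in KELLY, 38.3, 33.4 and 30.7 for SK-N-AS, 327, 238 and 356 for NGP, and 239, 235 and 227 for BE(2)-C. As deposited, all 3 NGP arrays lay above all 3 KELLY arrays, and SK-N-AS was the lowest line on every array. On centred arrays the order was SH-SY5Y (9.46), NGP (8.33), KELLY (8), BE(2)-C (7.54) and SK-N-AS (4.54), and on the deposited scale KELLY stood below BE(2)-C instead. The class difference was 1.92 (log2, centred) with p = 0.4 in the exact permutation test over line means, and 1.61 with p = 0.2 for the other ALK probe set. That other set put both F1174L lines above all wild-type lines on centred arrays, with SH-SY5Y at 8.84 and KELLY at 7.62 against 7.49 for NGP, 7.08 for BE(2)-C and 5.28 for SK-N-AS. As deposited, KELLY (164 ± 7.16) did not stand apart from NGP (169 ± 5.13) and BE(2)-C (169 ± 0.464) on that set, and its arrays overlapped theirs. For the brighter set on centred arrays, KELLY minus NGP was -0.34 (SE 0.12, limma adjusted p = 0.0206). KELLY minus BE(2)-C was 0.45 (SE 0.12, limma adjusted p = 0.0024), so by limma KELLY differed from these 2 lines in opposite directions. Limma pools the spread of arrays over lines, and the NGP arrays alone spread more widely (307 ± 61.6 as deposited).

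Of the ALK family and its ligands, 0 of 5 tested genes were called in all 6 line pairs in either direction. A call needs a limma adjusted p under 0.05 and a difference of at least 1 in every pair. Over all tested genes 0.259% were called higher and 0.299% lower, so 0 calls in a short list, here or below, is near that share. ALKAL1, an ALK ligand, was bright in KELLY alone (91.2 ± 7.42; line levels are deposited intensities, mean ± SD over n = 3 arrays) and stood at 17.4 ± 3.9 to 29.0 ± 2.55 in the other lines. ALKAL2, the ligand encoded on the short arm of chromosome 2, was below the filter, with line means of 16.1 to 40.1. LTK, the receptor most like ALK, stood between 49.1 ± 4.8 in SH-SY5Y and 108 ± 7.67 in NGP. For the heparin-binding growth factors PTN and MDK, BE(2)-C was the extreme line: PTN was 2100 ± 216 there and 37.3 ± 5.66 to 386 ± 35.9 elsewhere, and MDK was 400 ± 11.1 there and 1720 ± 136 to 2700 ± 363 elsewhere.

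The genes next to ALK on chromosome 2 were compared in the same way. Of the 10 tested genes on each side of it, 0 of 20 were called, and their class differences ran from -0.63 to 0.63 with a median of 0.03. CLIP4 and YPEL5, the nearest tested genes on either side, had class differences of -0.26 and 0.15.

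The first steps below the receptor showed no member called in all 6 pairs: 0 of 19 adaptors and first messengers, 0 of 14 brakes on receptor kinases and 0 of 16 genes of the RAS-MAPK core. With 0.259% of all tested genes called higher and 0.299% lower, 0 calls is near what lists this short would hold. The 2 largest class differences in each list are given as values. Among adaptors and messengers these were RAP1B, a small GTPase (-1.46), and SHC2, an adaptor (1.12). The RAP1B value was 0.56 when probe sets that may match several genes were left out, so its direction depends on the probe set. Among brakes they were LRIG1, which promotes the decay of receptor kinases (-1.29), and SOCS2, an inhibitor of cytokine signalling (1.18). In the RAS-MAPK core they were the RAS-related GTPases MRAS (1.69) and RRAS2 (-1.62), each with 1 sign in all 6 pairs and a smallest difference of 0.78 and -0.55. Of the 16 genes of this core list, 2 were higher and 5 lower in all 6 pairs, beside 5.08% and 13.9% of all tested genes. NRAS was not analysed here.

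Of 29 tested genes in the list of MAPK feedback and output, 2 were called lower, PHLDA1 and IER3, and 0 higher. Over all tested genes 0.299% were called lower and 0.259% higher. The list median was -0.43 against -0.13 over all genes. PHLDA1 and IER3 both met the rule that chose the genes, so their differences are descriptive. PHLDA1, a pleckstrin homology-like protein that follows MAPK activity, read 43.0, 39.5 and 37.7 in SH-SY5Y and 47.8, 51.4 and 48.5 in KELLY. SK-N-AS read 7310, 6780 and 7670, NGP 1540, 1490 and 1470, and BE(2)-C 2400, 2360 and 2230. All 6 F1174L arrays were thus far below all 9 others, and the smallest of the 6 differences was -4.70. Its 3 other probe sets met the rule too, with class differences of -4.99, -3.97 and -3.70.

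IER3, an immediate early gene, read 23.2, 20.9 and 20.4 in SH-SY5Y and 93.1, 98.6 and 98.7 in KELLY. SK-N-AS read 20300, 18000 and 20900, NGP 989, 1080 and 920, and BE(2)-C 1320, 1480 and 1320. The groups did not overlap, SK-N-AS stood far above the other wild-type lines, and the smallest difference was -3.18.

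The rest of this list was not called in all 6 pairs. Besides PHLDA1 and IER3, ETV1, an ETS factor (class difference -1.58), and JUNB, an AP-1 subunit (-0.91), were lower in all 6 pairs, with smallest differences of -0.06 and -0.63, and SPRED3, an inhibitor of the pathway (0.20), was higher in all 6. That made 4 of 29 genes lower and 1 higher in all 6 pairs. Over all tested genes 13.9% were lower and 5.08% higher in all 6, so these counts are near those shares. Class differences were -1.56 for EGR3, an immediate early factor, -1.13, 0.00 and -0.57 for the inhibitors SPRY1, SPRY2 and SPRY4, and -0.81 and 0.19 for the ETS factors ETV4 and ETV5, and the pairs of these genes did not share a sign. All of these, like DUSP6, were named after their values were seen. DUSP6, a phosphatase of ERK, was 1670 ± 67.6 in SH-SY5Y, between NGP (500 ± 56.6) and SK-N-AS (5840 ± 586), and 338 ± 37.3 in KELLY, below every wild-type line on the deposited scale. Its 6 centred differences did not share a sign. Leaving out 1 line at a time left 2 or 3 genes of this list called lower and at most 1 higher, and the deposited scale gave 3 lower and 0 higher. Over all tested genes the calls rose from 38 lower and 33 higher to 76 to 273 lower and 73 to 148 higher without a line. On the deposited scale they were 219 lower and 12 higher, so the list counts stand beside a changed background.

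**Figure D1:**
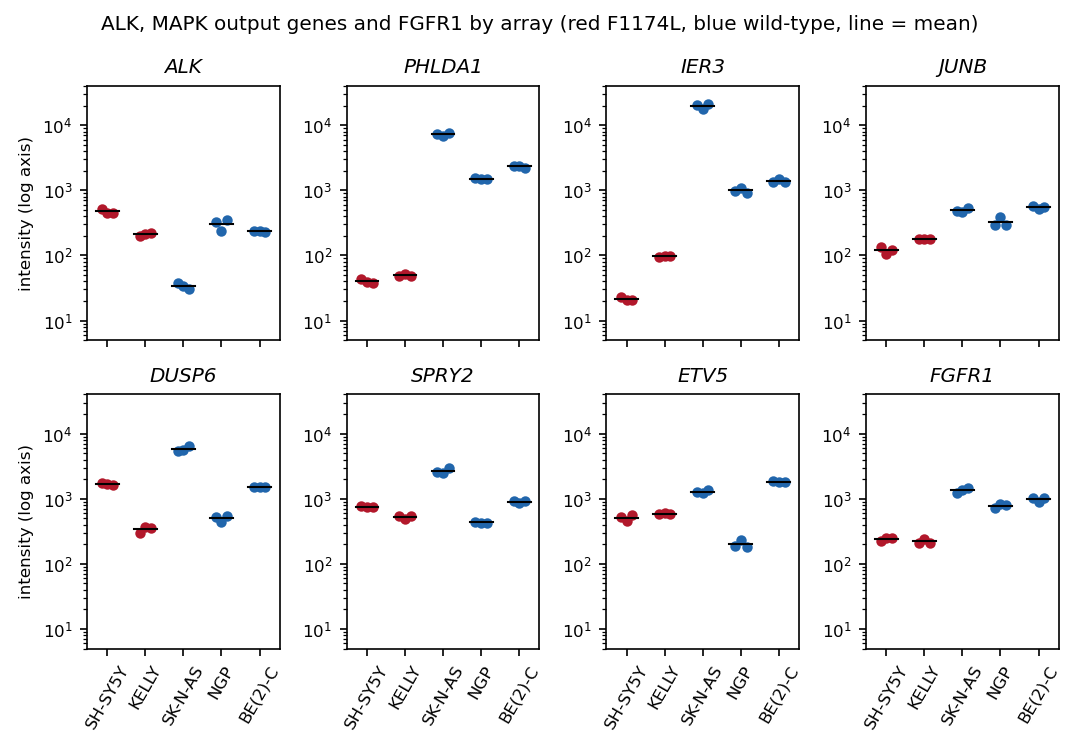
Deposited intensity (log axis) of ALK, 6 MAPK output genes and FGFR1 on each of the 15 arrays, with ALK F1174L lines in red, wild-type lines in blue and a bar at the mean of 3 arrays. ALK in NGP lies above ALK in KELLY, PHLDA1 and IER3 are below 100 on all red arrays, and DUSP6, SPRY2 and ETV5 overlap between the classes.

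In other signalling lists, 1 further gene was called, beside 0.299% of all tested genes called lower and 0.259% called higher. Among other receptor kinases 1 of 24 was lower, the fibroblast growth factor receptor FGFR1: it read 228, 248 and 250 in SH-SY5Y, 212, 244 and 211 in KELLY, 1210, 1380 and 1480 for SK-N-AS, 710, 817 and 794 for NGP, and 1010, 906 and 1010 for BE(2)-C. The 6 F1174L arrays lay below the 9 others, with a smallest difference of -1.10. Of its other probe sets above the filter, 4 of 5 had 1 sign in all 6 pairs and 0 reached the threshold of 1 in all. RET, a receptor kinase often discussed with ALK, was 1290 ± 83.3 in SH-SY5Y and 1190 ± 22.1 in KELLY, between NGP (325 ± 14.5) and the other wild-type lines (2920 ± 181 for SK-N-AS and 4790 ± 190 for BE(2)-C). In the PI3K-AKT-mTOR list 0 of 23 were called, and the largest class differences were -1.74 for DEPTOR, an inhibitor of mTOR, and 0.91 for FOXO3, a forkhead factor that AKT restrains. In the BCL2 family 0 of 15 were called, with 1.13 for BCL2, which blocks apoptosis, and -0.60 for BIK, which promotes it.

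The labelled cell type was checked against markers. HAND2 and GATA3, transcription factors of sympathetic neuroblasts, were bright in all 5 lines, from 6980 ± 636 and 1710 ± 89.7 upward. Both belong to the list of adrenergic markers that follows and were chosen after their values were seen. Other genes of that list were dim in SK-N-AS, among them DDC (65 ± 5.14), CHGB (40.6 ± 2.85) and ELAVL4 (39.4 ± 10.9). Of 16 tested adrenergic markers, which mark the committed neuroblast state, 0 were called, with a median class difference of 1.22. The largest, CHGA (3.01) and TFAP2B (2.89), had their lowest level in SK-N-AS, where CHGA was 53.3 ± 8.22 and TFAP2B 23.4 ± 4.83, against 5860 ± 491 and 893 ± 60.9 or more in each other line. Of 18 mesenchymal markers 0 were called, with a median of -0.85. COL3A1, a fibrillar collagen, was 17500 ± 739 in SK-N-AS and 22.3 ± 1.6 to 164 ± 12.2 elsewhere. VIM, an intermediate filament, had a class difference of -3.00, with 156 ± 18.1 in KELLY but 1290 ± 119 in SH-SY5Y. FN1 (1.24), TWIST1 (1.07) and NOTCH2 (0.40) of this list went the other way, and TWIST1 was lowest in SK-N-AS (893 ± 86.9). SK-N-AS was the wild-type line farthest from the F1174L lines for 19 of the 33 higher and 19 of the 38 lower genes. Whether cell state has a part in those differences was not tested.

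Of 10 tested markers of fibroblasts, endothelium and blood, 1 was called lower, the matrix proteoglycan LUM (38.2 ± 2.7 for SH-SY5Y and 16.5 ± 2.51 for KELLY, against 126 ± 3.64 for NGP, 1050 ± 41.5 for BE(2)-C and 4980 ± 560 for SK-N-AS). Over all tested genes 0.299% were called lower. Of 8 Schwann cell markers 2 were above the filter and 2 were not analysed here. Of the 2 above the filter 0 were called, with class differences of -0.17 for SOX10 and -0.19 for S100B. Of 10 genes of the MYC family 0 were called: MYCN was 9360 ± 163 in KELLY and 152 ± 30.2 in SH-SY5Y, and MYC was 30.2 ± 1.72 and 1750 ± 145, so the F1174L lines differed from each other in both, each on the side of the wild-type lines of its own MYCN state.

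The class difference was tested over lines, with the 5 line means as replicates. No gene passed (0 of 12721, 0%), with a lowest limma adjusted p of 0.422. At an unadjusted p under 0.05 there were 431 genes (3.39%), 132 higher and 299 lower. With 2 lines against 3, the 71 genes are therefore those that separate these 5 lines, and their number says nothing by itself about other lines with the mutation. Over the spread of arrays alone, all 33 higher and all 38 lower genes, and no others, were called by limma in all 6 pairs (0.259% and 0.299%), a test on the same contrasts that chose them. The 6 and the 9 centred arrays did not overlap for all 71, as the rule nearly fixes, beside 2.25% of all tested genes on the higher and 5.96% on the lower side. On the deposited scale the arrays did not overlap for 28 of the 33 and all 38, the latter fixed by the lower array medians of the F1174L lines.

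**Figure D2:**
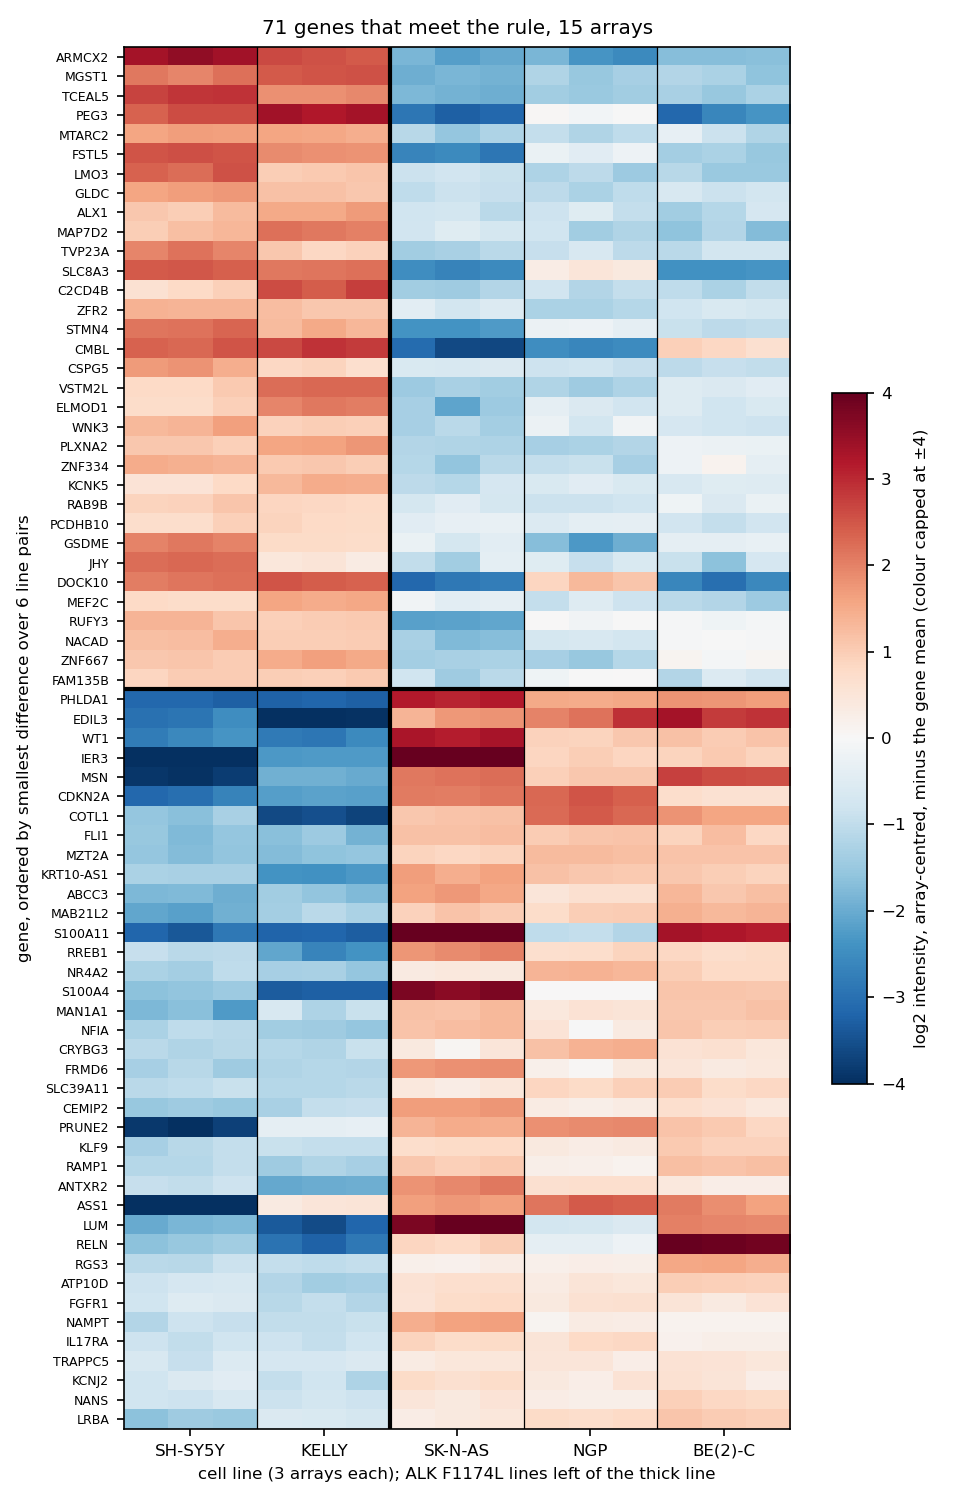
Centred log2 intensity minus the gene's mean over 15 arrays (colour, red higher and blue lower, capped at 4 either way) for the 33 higher (above the thick line) and 38 lower genes, ordered by their smallest difference. SH-SY5Y and KELLY share a colour for most genes, while SK-N-AS is the most distant wild-type line for 19 higher and 19 lower genes.

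The class differences of the 33 higher genes ran from 1.34 to 4.97 with a median of 2.34, and those of the 38 lower genes from -5.84 to -1.13 with a median of -2.57. Among the higher genes, ARMCX2 had the largest smallest difference, 4.25. ARMCX2, an armadillo repeat protein encoded on the X chromosome, read 499, 533 and 482 in SH-SY5Y and 362, 350 and 330 in KELLY. SK-N-AS read 28.4, 21.6 and 25.2, NGP 18.5, 12.3 and 10.0, and BE(2)-C 26.1, 26.1 and 26.8. All 9 wild-type arrays lay between 10 and 28.4, around the background probe sets, and all 6 F1174L arrays were at 330 or above.

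TCEAL5, another X-linked gene, whose promoter is printed above beside that of ARMCX2, read 472, 475 and 510 in SH-SY5Y and 298, 310 and 329 in KELLY. SK-N-AS read 43.3, 40.2 and 40.5, NGP 37.1, 34.7 and 34.2, and BE(2)-C 51.4, 44.4 and 52.5, so the wild-type lines lay close together and the smallest difference was 3.22.

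MGST1, a membrane-bound glutathione transferase, read 667, 543 and 675 in SH-SY5Y and 980, 1060 and 1100 in KELLY, against 83.1, 89.6 and 90.2 for SK-N-AS, 90.7, 72.1 and 77.6 for NGP, and 120, 113 and 88.5 for BE(2)-C. The smallest difference was 3.45, and both of its other probe sets met the rule with class differences of 4.62 and 4.60. LMO3, a LIM-only protein known as an oncogene in neuroblastoma and the next tested gene on chromosome 12, was 555 ± 70.9 in SH-SY5Y and 277 ± 16.2 in KELLY and at most 132 ± 5.13 (SK-N-AS) in a wild-type line. All 7 of its other probe sets above the filter met the rule.

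PEG3, a paternally expressed imprinted gene for a zinc finger protein, read 506, 546 and 559 in SH-SY5Y and 1170, 1090 and 1180 in KELLY. Of the wild-type lines NGP kept some signal (137, 124 and 122), and SK-N-AS (26.7, 20.2 and 23.4) and BE(2)-C (18.9, 27.6 and 32.9) were near background. The same pattern, with NGP nearest to the F1174L lines, was seen for SLC8A3, a sodium-calcium exchanger (534 ± 27.3 and 544 ± 23.3, against 179 ± 12.6 for NGP, 35.7 ± 2.54 for SK-N-AS and 33.5 ± 0.793 for BE(2)-C), and for FSTL5, a follistatin-like secreted protein (319 ± 8.23 and 248 ± 4.15, against 62.4 ± 4.21 in NGP).

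STMN4, a stathmin that binds tubulin, was 443 ± 34.2 in SH-SY5Y and 308 ± 30.7 in KELLY and at most 110 ± 9.95 in a wild-type line, and MAP7D2, which binds microtubules, was 71.9 ± 6.76 and 173 ± 9.12 against at most 45.0 ± 4.37. GLDC, the decarboxylase of the glycine cleavage system, was 214 ± 7.75 and 186 ± 7.55 against at most 77.9 ± 4.85, and MTARC2, a mitochondrial reductase, was 99.9 ± 1.96 and 117 ± 3.56 against at most 35.6 ± 11.3. ALX1, a homeobox factor, was 95.3 ± 11.2 and 165 ± 14 against at most 53.5 ± 5.7. TVP23A, a Golgi protein, C2CD4B and ZFR2 completed the first 15, with smallest differences of 1.8, 1.75 and 1.69. The single other ZFR2 probe set above the filter showed a class difference of 0.04, so the ZFR2 probe sets disagreed.

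The other 18 higher genes had smallest differences of 1.58 down to 1.01. They include PLXNA2, a semaphorin receptor (1.26), CSPG5, a brain proteoglycan (1.40), MEF2C, a transcription factor of neurons and muscle (1.05), GSDME, a gasdermin (1.10), WNK3, a kinase that controls chloride transport (1.33), and KCNK5, a potassium channel (1.17). Some of these genes were bright in 1 wild-type line. CMBL, a hydrolase, was 641 ± 59.1 in SH-SY5Y and 1050 ± 103 in KELLY, against 401 ± 41.8 for BE(2)-C and 24.6 ± 5.65 and 28.8 ± 1.78 for SK-N-AS and NGP. DOCK10, an exchange factor for small GTPases, was 324 ± 12.8 and 503 ± 14.6, against 222 ± 31.9 for NGP and 19.9 ± 3.31 to 21.0 ± 3.18 for the other wild-type lines. The members not described singly were VSTM2L, ELMOD1, ZNF334, RAB9B, JHY, RUFY3 and NACAD, with smallest differences of 1.03 to 1.40. Of the 6 other RUFY3 probe sets above the filter, 3 did not keep 1 sign over the 6 pairs. For MEF2C and PCDHB10 centring decided the sign: on the deposited scale MEF2C was 67.0 ± 4.62 for SH-SY5Y against 72.7 ± 7.05 for SK-N-AS, and PCDHB10, a protocadherin, was 171 ± 19.8 and 173 ± 14.6. For 17 of the 33 higher genes all 3 wild-type lines lay below the filter of 80.6.

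**Figure D3:**
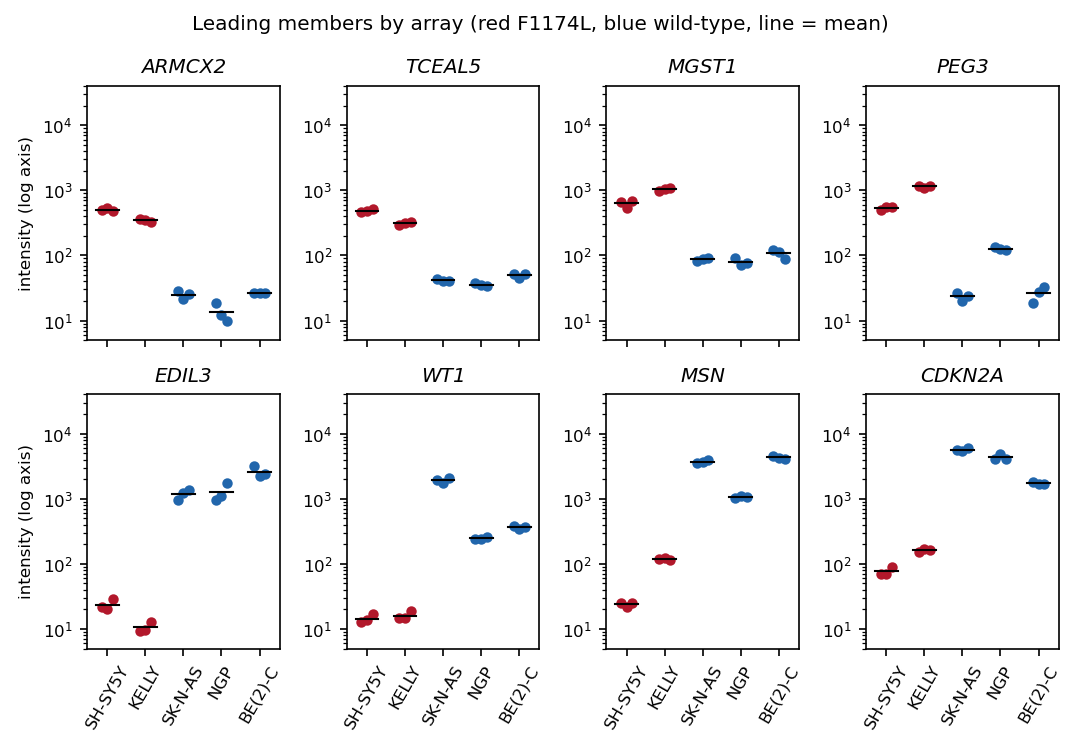
Deposited intensity (log axis) of 4 leading higher and 4 leading lower genes on each of the 15 arrays, with F1174L lines in red, wild-type lines in blue and a bar at the mean of 3 arrays. No red array overlaps a blue one in any panel, and PEG3 in NGP lies between the red arrays and the other blue ones.

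Among the lower genes, MSN, or moesin, which ties the membrane to actin, read 25.1, 21.7 and 25.3 in SH-SY5Y and 119, 124 and 115 in KELLY. SK-N-AS read 3530, 3650 and 3990, NGP 1020, 1120 and 1060, and BE(2)-C 4570, 4220 and 4140, with no overlap and a smallest difference of -2.98. COTL1, a coactosin-like actin-binding protein, was 72.3 ± 10.5 in SH-SY5Y and 20.2 ± 1.54 in KELLY against 1010 ± 54.3 to 1470 ± 133 in the wild-type lines.

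EDIL3, a secreted protein that binds integrins, read 21.5, 20.2 and 28.9 in SH-SY5Y and 9.42, 9.57 and 12.8 in KELLY, the latter below the background probe sets. SK-N-AS read 963, 1220 and 1340, NGP 952, 1100 and 1740, and BE(2)-C 3200, 2230 and 2360, with a smallest difference of -4.43. Only 1 of its 4 other probe sets was above the filter, with a class difference of -2.24. The calcium-binding proteins S100A11 and S100A4, which lie near each other on chromosome 1, were lower too, with the highest values in SK-N-AS. S100A11 was 6780 ± 475 there and 18.1 ± 3.74 and 21.1 ± 0.758 in SH-SY5Y and KELLY, and S100A4 was 23100 ± 1890 there against 270 ± 18.8 and 101 ± 4.49.

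WT1, the zinc finger factor of Wilms tumour, read 12.8, 13.5 and 16.7 in SH-SY5Y and 14.7, 14.5 and 18.8 in KELLY. SK-N-AS read 1940, 1770 and 2070, NGP 244, 240 and 257, and BE(2)-C 386, 347 and 368, so the F1174L lines were at background and the smallest difference was -3.53. FLI1, an ETS factor, was 13.2 ± 1.89 and 15.9 ± 2.39 against 127 ± 3.27 to 216 ± 12.2, with both F1174L lines at or below the median of the background probe sets. NR4A2, a nuclear receptor, was 29.3 ± 4.08 and 32.6 ± 2.74 against 204 ± 7.06 to 250 ± 16, and both of its other probe sets met the rule. RREB1, a zinc finger protein that responds to RAS, was 34.3 ± 3.71 and 16.6 ± 3.28 against 168 ± 8.1 to 593 ± 63.8, but 0 of its 4 other probe sets above the filter met the rule.

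CDKN2A, which encodes an inhibitor of cyclin-dependent kinases and, in another frame, an activator of p53, read 70.0, 68.6 and 90.2 in SH-SY5Y and 154, 167 and 164 in KELLY. SK-N-AS read 5510, 5370 and 6040, NGP 4120, 4850 and 4130, and BE(2)-C 1780, 1680 and 1680, with a smallest difference of -2.82. Both of its other probe sets above the filter were lower in all 6 pairs but missed the rule, with smallest differences of -0.86 and -0.58 and class differences of -2.18 and -1.74. Its neighbour CDKN2B, also a kinase inhibitor and named here after its values were seen, was 10.3 ± 0.448 in SH-SY5Y and 14.3 ± 1.04 in KELLY against 32.3 ± 1.03 for NGP, 63.7 ± 6.76 for BE(2)-C and 614 ± 39.4 for SK-N-AS. CDKN2B was lower in all 6 pairs, with a smallest difference of -0.96. Both F1174L lines lay below the median of their background probe sets (16.5 and 16.8), so the CDKN2B differences are lower bounds in size.

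MZT2A, a component of the gamma-tubulin complex, ABCC3, an efflux transporter, MAB21L2, a developmental regulator, and the antisense RNA KRT10-AS1 completed the first 15 lower genes, with smallest differences of -2.49, -2.17, -2.14 and -2.28. The single other ABCC3 probe set above the filter had mixed signs over the pairs and a class difference of -0.28. The MZT2A probe set can match a close paralogue, so its value is uncertain. The other 23 lower genes had smallest differences of -1.56 to -1. They include ASS1, which makes argininosuccinate for arginine synthesis, where the F1174L lines themselves differed most: it was 11.9 ± 2.86 in SH-SY5Y, 1710 ± 129 in KELLY and 6790 ± 1110 to 7100 ± 215 in the wild-type lines. RELN, the secreted guide of neuronal migration, was 4140 ± 352 in BE(2)-C, 585 ± 52.8 in SK-N-AS and 161 ± 4.05 in NGP against 48.7 ± 3.32 and 21.0 ± 2.88. NAMPT, an enzyme of NAD salvage (-1.09), NFIA, a transcription factor of glial development (-1.42), and FRMD6, upstream in the Hippo pathway (-1.39), also met the rule. The other NAMPT probe set above the filter had mixed signs over the pairs. No other NFIA or FRMD6 set above the filter met the rule, though all were lower in all 6 pairs. PRUNE2, which like ASS1 and CDKN2A is encoded on chromosome 9, was 12.0 ± 2.75 in SH-SY5Y and 194 ± 5.87 in KELLY against 747 ± 78.9 to 1200 ± 64.9. KLF9, a Krüppel-like factor, was 120 ± 12.9 and 173 ± 0.607 against 472 ± 20.7 to 999 ± 47.5. The members not described singly were MAN1A1, CRYBG3, SLC39A11, CEMIP2, ANTXR2, RGS3, ATP10D, IL17RA, TRAPPC5 and KCNJ2, with smallest differences of -1.44 to -1.01. In 8 of the 38 lower genes at least 1 F1174L line was at or below the median of the background probe sets (ASS1, MAB21L2 and PRUNE2 in SH-SY5Y, EDIL3, LUM and RREB1 in KELLY, FLI1 and WT1 in both), so their differences in those lines are lower bounds in size. The same holds for ARMCX2 in NGP among the higher genes. JHY was below the median of the background probe sets in NGP and BE(2)-C, but it was dim in KELLY too (28.1 ± 1.86). As deposited, its KELLY arrays overlapped those of SK-N-AS (20.4 ± 8.13). The smallest JHY difference was 0.51 as deposited and 1.1 on centred arrays. Both F1174L lines lay below the filter for 16 of the 38.

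At the threshold, the members just inside were LRBA (-1), FAM135B (1.01) and NANS (-1.01), and the genes just outside were PHACTR3 (0.99), NRXN2 (0.99) and PBX4 (0.96).

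The other probe sets of a gene, which the rule did not use, mostly took the same side, though they share the arrays and often the transcript. Of 32 others above the filter for 15 of the higher genes, 28 were higher in all 6 pairs (87.5%), against 4.74% of 16842 unused probe sets. Of 59 others for 26 of the lower genes, 54 were lower in all 6 pairs (91.5%), against 11.9%. The full rule was met by 25 of the 32 and 14 of the 59.

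SH-SY5Y and KELLY lay within 1 log2 unit of each other for 26 of the 33 higher and 26 of the 38 lower genes, beside 84.8% of all tested genes. The nearest wild-type line was NGP for 13 higher and 20 lower genes, BE(2)-C for 14 and 8, and SK-N-AS for 6 and 10.

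By position, 5 of the 33 higher genes (ARMCX2, TCEAL5, MAP7D2, WNK3 and RAB9B) were on the X chromosome (15.2%), which held 3.29% of all tested genes. Of the 38 lower genes, 7 (CDKN2A, KLF9, CEMIP2, PRUNE2, NANS, RGS3 and ASS1) were on chromosome 9 (18.4%), which held 3.99%. In reference order MGST1 and LMO3 were adjacent tested genes, as were LRBA and MAB21L2, and KLF9 and CEMIP2 had 1 tested gene between them.

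The array medians that centring subtracts averaged 5.79 and 6.11 (log2) in SH-SY5Y and KELLY. They averaged 6.28 to 6.95 in the wild-type lines. Without centring all 6 differences of every gene are therefore lower, so a lower gene could not fail the rule and only a higher gene could. On the deposited scale 12 of the 33 higher genes still met the rule (ARMCX2, MGST1, TCEAL5, PEG3, MTARC2, FSTL5, LMO3, GLDC, TVP23A, SLC8A3, STMN4 and WNK3), and all 38 lower genes did. ZNF667, for example, had a smallest difference of 1.03 on centred arrays and 0.12 as deposited. The rule applied to deposited values gave 12 higher and 219 lower genes, and centring on the tested genes gave 45 higher and 28 lower.

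**Figure D4:**
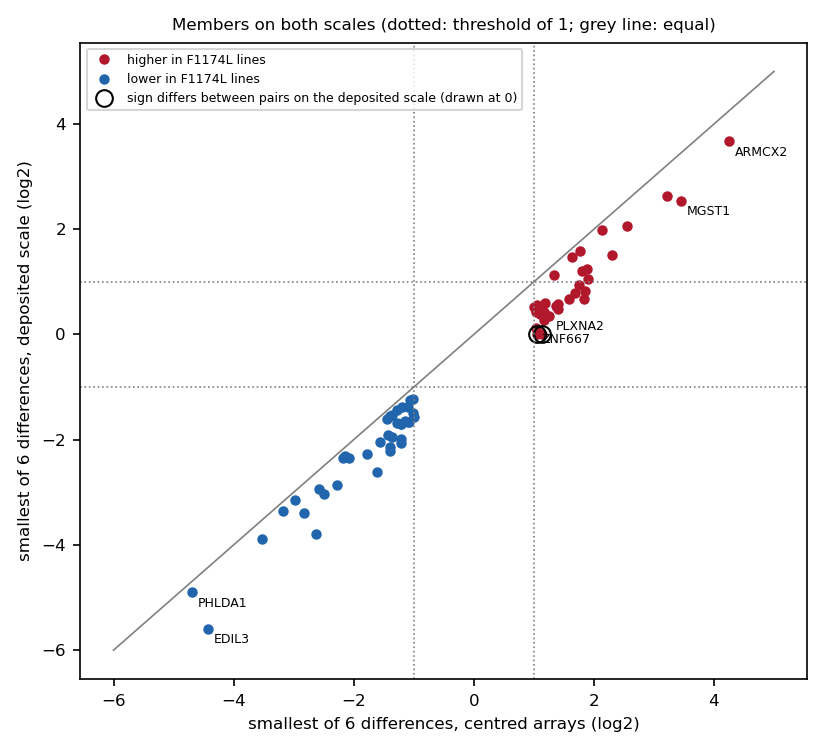
Smallest of the 6 line-pair differences (log2) of each of the 71 genes on centred arrays (horizontal) and on the deposited scale (vertical), red for higher and blue for lower genes, with dotted lines at the threshold of 1 and the line of equality in grey. All 38 blue points stay beyond -1 on both axes, which the lower array medians of the F1174L lines fix. On the vertical axis 12 of 33 red points stay beyond 1, and 2 circled red points have mixed signs on the deposited scale and are drawn at 0.

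Because each MYCN state holds lines of both ALK classes, the ALK difference was compared between KELLY minus the mean of NGP and BE(2)-C, and SH-SY5Y minus SK-N-AS. The limma interaction test called 3959 of all tested genes (31.1%) at an adjusted p under 0.05 and a difference of at least 1. Of the higher genes 15 of 33 were called, 12 with the larger difference in the lines without amplification, and of the lower genes 18 of 38, with 15. Each side of this comparison rests on 1 F1174L line, so it compares these lines. For ALK the difference was 0.06 among the amplified and 4.92 among the other lines. MGST1 gave close values on both sides (3.86 and 3.98; interaction -0.12, SE 0.14, limma adjusted p = 0.44), as did RAMP1, a subunit of the CGRP receptor (-2.01 and -2.11; 0.11, SE 0.09, limma adjusted p = 0.31).

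**Figure D5:**
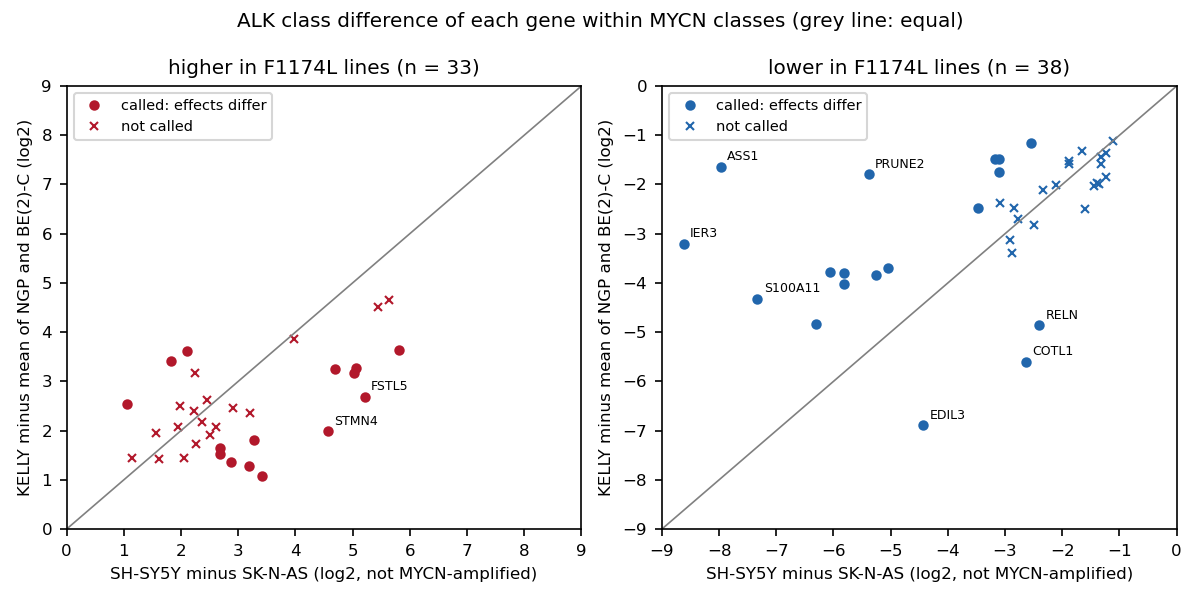
ALK class difference of each gene (log2, centred arrays) in the lines without MYCN amplification (SH-SY5Y minus SK-N-AS, horizontal) and in the amplified lines (KELLY minus the mean of NGP and BE(2)-C, vertical), for 33 higher and 38 lower genes, in a left and a right panel, with the line of equality in grey. Round points (15 and 18) passed the interaction test and crosses did not; ASS1, IER3 and PRUNE2 lie farthest from the line.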

How the data were processed

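The authors deposited linear intensity values, 1 for each probe set of an array. Per the submitters' processing notes, MAS5 made them; no source used here gives its version, background correction or scaling. Per the labels' protocols, ERCC RNA went in with the lysis and the input was 100 ng of RNA. The genes, lists and tests were chosen with earlier results of these data known. The table held 49494 probe sets: 45277 with 1 gene in the annotation used, 1333 with several, 2682 with none and 202 controls. The probe set with the highest mean stood for each of 18244 genes. Values were taken as log2(intensity + 1), and an array's median over all probe sets but controls was subtracted. Genes were tested where the highest line mean reached 6.35 (log2; an intensity of 80.6), the median of the whole table. A class difference is the mean of the F1174L line means minus that of the wild-type line means.

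In R 4.3.3, limma 3.58.1 with 1 mean per line and an intensity-dependent prior gave the 6 line pairs and the interaction, and a second model used the 5 line means. Adjusted p-values are Benjamini-Hochberg over all tested genes, and permutation tests were exact over 10 splits of the lines. The scripts were tested on simulated data. Named were the 15 higher and 15 lower genes with the largest smallest difference, the 3 genes on each side of the threshold, the ALK family, RET, MYCN and MYC, the called genes of a list or else its 2 largest differences, and the neighbours of ALK; others were chosen after their values were seen, among them the members named beyond these 15 and the list genes in the plot of ALK and MAPK output. Names and gene order are from RefSeq (GRCh38.p14), which held 12713 of the tested symbols. For arrays, their number limits the precision. Alternatives were other scalings, pseudocounts, filters and probe set rules, a replicate block, and leaving out each array or line. Replicate numbers did not pair the arrays: same-numbered arrays of different lines correlated at -0.227 to 0.234 in their deviations, over 0.1 in 5 of 30 pairs. Within a line, arrays correlated at 0.9931 or more, and no pair was identical.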

Additional observations from a re-analysis of the deposited data

Results flagged for a closer look

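The ALK class difference differed between the MYCN-amplified lines (KELLY against NGP and BE(2)-C) and the other lines (SH-SY5Y against SK-N-AS) for ALK and 33 of the 71 genes, by the limma interaction test at an adjusted p under 0.05 and a difference of at least 1 (log2, centred arrays, amplified minus other). The background share of genes called by this test was 31.1%, and each side holds 1 F1174L line. ALK itself gave -4.86 (SE 0.16, limma adjusted p = 3.2e-16), with SK-N-AS dim.

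Of the 33 higher genes, 15 were called. The difference was smaller among the amplified lines for STMN4 (-2.58), FSTL5 (-2.52), RUFY3 (-2.34), CMBL (-2.18), JHY (-1.89), SLC8A3 (-1.86), DOCK10 (-1.79), NACAD (-1.52), TVP23A (-1.47), TCEAL5 (-1.44), WNK3 (-1.16) and ZNF334 (-1.06). It was larger there for MAP7D2 (1.6), C2CD4B (1.5) and MEF2C (1.5).

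Of the 38 lower genes, 18 were called. The decrease was larger in SH-SY5Y against SK-N-AS for the urea cycle enzyme ASS1 (6.33), the immediate early gene IER3 (5.41), PRUNE2 (3.59), the calcium-binding S100A11 (3.01), MSN (2.28), WT1 (2.03), LUM (1.79), CEMIP2 (1.68), FRMD6 (1.61), PHLDA1 (1.46), S100A4 (1.42), NAMPT (1.4), MAN1A1 (1.37), CDKN2A (1.34) and ABCC3 (1). It was larger in KELLY for COTL1 (-2.97), EDIL3 (-2.46) and RELN (-2.45). EDIL3 and LUM in KELLY, ASS1 and PRUNE2 in SH-SY5Y and WT1 in both, and JHY in NGP and BE(2)-C, were at or below the median of the background probe sets, so these values rest on bounds.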

How the results depend on the processing

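The counts of genes that met the rule and of genes called in all 6 line pairs were equal under the settings run for both, here higher then lower, from 33 and 38. They were 12 and 219 on the deposited scale, 13 and 189 after centring on ERCC probe sets, and 43 and 32 after quantile normalization. A filter at the 75th percentile left 15 higher, and averaging probe sets left 24 lower. A difference of at least 1.5 left 16 and 16, and no fold threshold gave 258 and 734 called genes. Centred and deposited scales together (added after seeing the data) left 12 and 38, where the lower array medians of the F1174L lines fixed the 38. Fewer lines mean fewer pairs to pass: 134 and 273 without SH-SY5Y, 148 and 188 without KELLY, 73 and 76 without SK-N-AS, 143 and 234 without NGP, and 107 and 105 without BE(2)-C. The causes of the other changes were not tested. Leaving out 1 array gave 32 to 36 higher and 36 to 41 lower. With the replicate number as a block the calls were 33 and 38; the numbers did not pair the arrays. The test over line means called 0 genes under every alternative run. The ALK class difference stayed above 0, from 0.79 without SK-N-AS to 2.68 without NGP. The difference relative to ERCC RNA stayed below 0, from -1.06 to -0.61, and that relative to hybridization controls was -0.20. Of 927 values of genes named by rule, 573 moved by more than the replicate spread and 354 by less. Of the 927, 22 changed sign, in 10 genes with 0 of the 71 among them. As deposited these were RET (0.27 to -0.42), RBKS (0.63 to -0.07) and YPEL5 (0.15 to -0.54); other settings or left-out lines turned LTK, SOX10, S100B, RAP1B, FOSL2, MYC and MYCN. Dim genes are limited by the background probe sets.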

Other observations

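The X-linked stretch from ARMCX2 to RAB9B was followed gene by gene, chosen after the values of its members were seen. It held 22 tested genes, most of them of the ARMCX, GPRASP, BEX and TCEAL families, which are known from neurons. Of these, 18 had a class difference above 0 and 6 were higher in all 6 line pairs, with a median class difference of 0.80 against -0.13 over all tested genes, of which 5.08% were higher in all 6. The count includes ARMCX2, TCEAL5 and RAB9B, the members that chose the stretch. The rest were TMSB15A, a thymosin (5290 ± 302 for SH-SY5Y and 2120 ± 107 for KELLY, against 1730 ± 127 for NGP, 706 ± 4.7 for BE(2)-C and 245 ± 14.1 for SK-N-AS), GPRASP1 (class difference 1.30) and GPRASP2 (1.16), which bind G protein-coupled receptors. GPRASP1 and GPRASP2 did so only on centred arrays: as deposited, GPRASP2 was 213 ± 3.38 in SH-SY5Y and 256 ± 15 in BE(2)-C, and GPRASP1 was 81.3 ± 4.28 in KELLY and 112 ± 9.25 in BE(2)-C. Others did not separate the classes: TCEAL7 was 1060 ± 124 in SH-SY5Y but 101 ± 2.35 in KELLY, below NGP (354 ± 50.1) and BE(2)-C (892 ± 50.3), and TCEAL6 had a class difference of 0.02. Members of these families resemble each other in sequence, so a probe set can read more than 1 of them.

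The stretch from ZNF667 to the imprinted gene PEG3 gave 4 of 4 tested genes higher in all 6 pairs on centred arrays, beside 5.08% of all tested genes. ZNF667 and PEG3 bound the stretch because they met the rule, which leaves 2 genes that it did not choose, and the smallest difference of ZNF71 was 0.02. The 4 were ZNF667 (class difference 2.17), the antisense RNA ZNF667-AS1 (1.27), ZNF71 (0.36) and PEG3 (4.86). On the deposited scale ZNF71 was 180 ± 7.03 in KELLY and 269 ± 10.4 in SK-N-AS, and ZNF667-AS1 was 386 ± 14.9 in SH-SY5Y and 411 ± 10.1 in BE(2)-C, so these did not hold there. Among 7 tested genes around CDKN2A, CDKN2A (-4.27) and CDKN2B (-2.37) had the largest class differences, with CDKN2B below background in both F1174L lines. MTAP, the next gene on the other side, gave -0.85, with 198 ± 43 in SH-SY5Y and 114 ± 7.56 in KELLY against 360 ± 11.5 to 513 ± 31.9 in the wild-type lines as deposited. On centred arrays SH-SY5Y minus SK-N-AS was -0.04 for MTAP.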
